A study of Drosophila melanogaster with 6 samples.

Results

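The integrin subunit genes of Drosophila melanogaster were followed in S2-DRSC cells that carry a stable transgene for HA-tagged AbdA and in S2-DRSC cells without it. The members were the genes whose symbol in the count tables was if, mew, scb, alphaPS4, alphaPS5, mys or betaInt-nu. All 7 were found among 14770 genes, and all 7 had enough counts to be tested. S2-DRSC is an embryonic cell line of blood-cell character, and AbdA is a Hox protein that gives abdominal segments their identity. Polyadenylated RNA was counted in 2 libraries of cells with the transgene (genotype HA::AbdA in strain S2-DRSC-HA::AbdA, here S2-AbdA) and in 4 libraries of cells without it (genotype wild type in strain S2-DRSC, here S2). Both kinds of cells had been in 10 µM copper sulphate for 24 h. The labels of S2 replicates 1 and 2 name the authors' table of changed genes and those of S2 replicates 3 and 4 do not, so these were kept as separate sets.

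Integrins are receptors of an α and a β subunit that span the cell membrane. Outside the cell they bind matrix proteins such as laminins and tiggrin, and inside they are coupled to actin by talin and a set of adaptor proteins. In the fly, mys encodes βPS, the β subunit that pairs with the αPS subunits, and betaInt-nu encodes the divergent subunit βν. The α subunit genes are mew (αPS1), which serves laminin binding, if (αPS2), whose receptor binds ligands with an RGD sequence such as tiggrin and is known for muscle attachment and wing adhesion, and scb (αPS3) with its relatives alphaPS4 and alphaPS5. In blood cells of the fly, scb and betaInt-nu are known for the engulfment of dead cells, and integrins take part in the spreading of cells on a surface.

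The libraries held 34233132 to 69858688 counts, so that 3 counts amounted to 0.0429 to 0.0876 counts per 1000000 counts (CPM), and the fewest counts of any integrin gene were 13. RNA of abd-A was high in both S2-AbdA libraries, with 819828 and 505607 counts, against 0 and 3 in S2 replicates 3 and 4 and 996 and 2308 in S2 replicates 1 and 2. Counts per gene do not separate the transgene from the cells' own abd-A. The source of the abd-A counts in S2 replicates 1 and 2 is not known and was not tested. No cells transfected without AbdA were analysed here, so the transgene and the stable transfection cannot be told apart. The labels do not say that replicates were separate cultures, so the p-values rest on a spread between libraries that may be technical. S2 replicates 3 and 4 stood apart from each other. The level of mys was 3.05 times higher in S2 replicate 4 than in S2 replicate 3, and that of mew 4.43 times higher. A gene is called higher or lower where its Benjamini-Hochberg adjusted p, over 9375 tested genes, lay under 0.10 in edgeR's quasi-likelihood test. The comparisons share libraries: S2-AbdA stands in both comparisons with S2, and each S2 set stands in 2 of the 3 comparisons.

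Markers of the other cell types were read beside the integrin genes. The blood-cell regulator srp averaged 158 CPM in S2-AbdA, 142 in S2 replicates 3 and 4 and 348 in S2 replicates 1 and 2. The summed level of 8 plasmatocyte markers was 703 to 947 CPM in S2-AbdA, 383 to 792 in S2 replicates 3 and 4 and 1219 to 1412 in S2 replicates 1 and 2. Of these 8 genes, S2-AbdA had 5 lower against S2 replicates 1 and 2, and 3 higher and 1 lower against S2 replicates 3 and 4, where 7.36% of all tested genes were lower in the first comparison and 14.7% higher and 17.1% lower in the second. The lamellocyte marker atilla had at most 5 counts in any library, and none of the 3 tested lamellocyte markers passed either comparison of S2-AbdA. The 4 crystal cell markers summed to 0.907 to 1.81 CPM in S2-AbdA, 1.57 to 2.33 in S2 replicates 3 and 4 and 15.1 to 90.2 in S2 replicates 1 and 2. That sum was mostly proPO-A1 (now PPO1), which averaged 0.932, 1.40 and 49.4 CPM in the same order of sets, while peb averaged 0.192, 0.300 and 0.185. The 8 muscle markers summed to 34.8 to 43.0 CPM in S2-AbdA, 26.2 to 40.9 in S2 replicates 3 and 4 and 80.0 to 107 in S2 replicates 1 and 2, and the myosin gene Mhc averaged 0.483 CPM or less in each set. The muscle sum was mostly Mef2, at 28.3, 22.6 and 49.4 CPM in the same order of sets, and Mlc2, at 2.77, 2.52 and 38.6. The gene sls, at 5.11, 6.96 and 2.63 CPM, was instead lowest in S2 replicates 1 and 2. The 3 tendon markers summed to 4.66 to 5.96 CPM in S2-AbdA, 1.28 to 1.75 in S2 replicates 3 and 4 and 10.95 to 13.3 in S2 replicates 1 and 2. In the same order of sets, Alk averaged 3.12, 0.433 and 10.8 CPM, Tsp 0.760, 0.890 and 0.808, and sr 1.43, 0.189 and 0.558. The sum thus mostly followed Alk, while sr was highest in S2-AbdA. The 4 epithelial markers summed to 507 to 717 CPM in S2-AbdA, 107 to 335 in S2 replicates 3 and 4 and 423 to 494 in S2 replicates 1 and 2, and the 4 neuronal markers to 56.6 to 69.3, 23.0 to 51.0 and 41.3 to 59.3 CPM in the same order of sets. The part of these markers in the integrin results was not tested. In bulk RNA, fewer cells of a type and less RNA per cell cannot be told apart.

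The β subunit gene mys was by far the most abundant integrin RNA in all 6 libraries. On a scale of CPM per kilobase of exonic length, it stood at 196 ± 17.6 in S2-AbdA, 99.5 ± 71.1 in S2 replicates 3 and 4 and 155 ± 19.0 in S2 replicates 1 and 2 (SD, n = 2 each). Its percentile among the tested genes on that scale was 79.7 in S2 replicate 3, the lowest, and 96.3 in S2-AbdA replicate 2, the highest. The 5 α subunit genes together reached 18.7 ± 0.203 CPM per kilobase in S2-AbdA, 5.48 ± 3.98 in S2 replicates 3 and 4 and 13.0 ± 0.934 in S2 replicates 1 and 2. The summed β level was therefore 9.92 and 11.1 times the summed α level in S2-AbdA, 18.5 and 18.1 times in S2 replicates 3 and 4, and 10.6 and 14.1 times in S2 replicates 1 and 2. Below mys the order of the genes differed between the sets. In S2-AbdA, if was the next most abundant at 9.44 ± 0.781 CPM per kilobase, above both libraries of mew (3.55 ± 0.0835) and scb (3.50 ± 0.531), whose libraries overlapped. In S2 replicates 3 and 4, mew followed mys at 3.71 ± 3.31, and the libraries of scb, if, alphaPS4, betaInt-nu and alphaPS5 overlapped between neighbours in that order, from 0.792 to 0.209. In S2 replicates 1 and 2, alphaPS5 (5.87 ± 1.59), betaInt-nu (4.78 ± 1.32) and scb (3.37 ± 0.675) overlapped between neighbours, and if was the lowest of the 7 genes at 0.348 ± 0.0572.

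**Figure D1:**
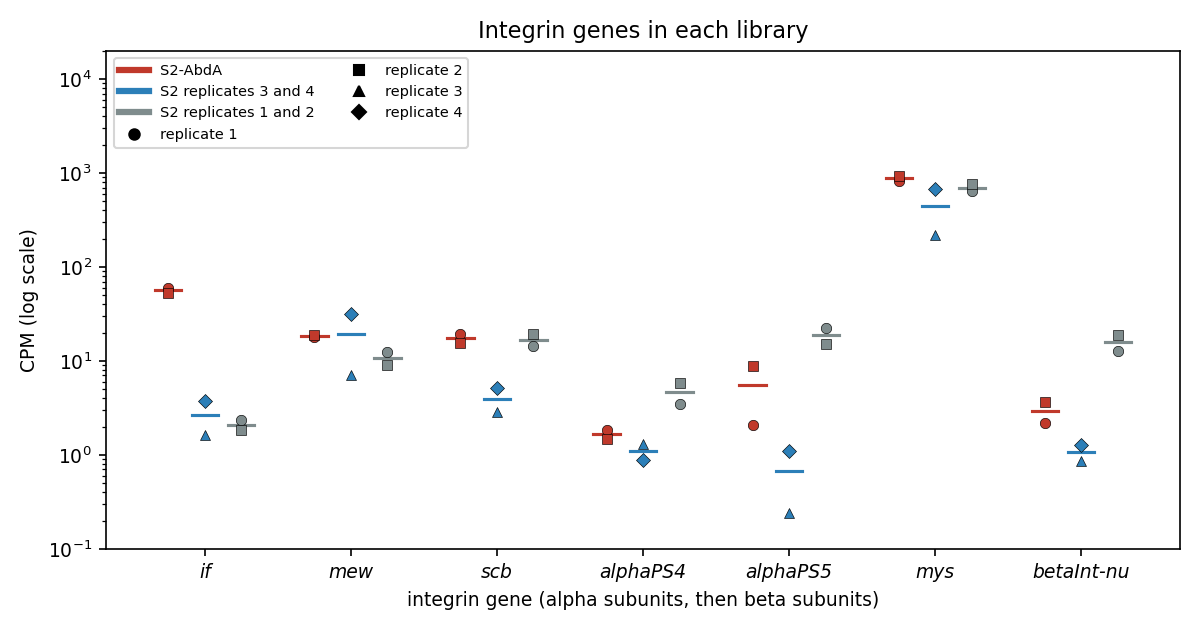
Level of each integrin gene in every library, in CPM on a log axis, with the mean of each set as a bar (n = 2 libraries per set). The if gene stands at 53.4 and 60.04 CPM in S2-AbdA and at 3.75 CPM or less in every S2 library, while mys stands at 220 CPM or more in all 6 libraries.

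The α subunit gene if was the integrin gene that rose in S2-AbdA against both S2 sets. The gene (gene number 32661, dm3 chromosome X, 16646222 to 16677467, minus strand and 4 transcripts in the BDGP6 annotation) stood at 60.04 and 53.4 CPM in S2-AbdA, at 1.61 and 3.75 CPM in S2 replicates 3 and 4 and at 2.34 and 1.85 CPM in S2 replicates 1 and 2. Both S2-AbdA libraries lay above all 4 S2 libraries, and the S2 sets overlapped each other. It rose 26.4-fold in S2-AbdA against S2 replicates 1 and 2 (log2 4.72, SE 0.44, adjusted p = 1.44e-04) and 17.6-fold against S2 replicates 3 and 4 (log2 4.14, SE 0.42, adjusted p = 1.49e-04). The difference between the S2 sets, 0.59 (SE 0.39, adjusted p = 0.266), did not pass the test, but without S2 replicate 3 it was 0.93 (adjusted p = 0.0422). Against S2 the call held under all 17 alternatives, with log2 fold changes of 4.4 to 4.89 over S2 replicates 1 and 2 and 3.60 to 4.58 over S2 replicates 3 and 4.

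The neighbours of if did not show a change of that size. CG9634, which lies 278 bases from if, stood at 0.138 CPM in S2-AbdA, 0.175 in S2 replicates 3 and 4 and 0.246 in S2 replicates 1 and 2. With only 5 to 18 counts per library, its change was loosely measured. Its log2 fold change in S2-AbdA was -0.85 (SE 0.61) over S2 replicates 1 and 2 and -0.63 (SE 0.60) over S2 replicates 3 and 4. The mitochondrial ribosomal protein gene mRpL22, which lies 519 bases on the other side, had a log2 fold change of 0.07 over S2 replicates 1 and 2 (adjusted p = 0.997) and was lower than in S2 replicates 3 and 4 (-1.02, adjusted p = 0.0836). The genes most like if over the 6 libraries, by the root mean square difference of centred log2 CPM among 9368 genes, were CG18107 (now BomS4, difference 0.55), cln3 (now Cln3, 0.57) and CG6361 (now Hayan, 0.58). In S2-AbdA, CG18107 was at 1.07 CPM and cln3 at 0.705 CPM, and both were at or near 0 in S2. CG6361 stood at 16.2 CPM in S2-AbdA, 1.32 in S2 replicates 3 and 4 and 0.735 in S2 replicates 1 and 2.

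The laminin-receptor subunit gene mew (32275, X, 13108442 to 13151204, minus strand) stood at 18.2 and 18.8 CPM in S2-AbdA, at 7.11 and 31.5 CPM in S2 replicates 3 and 4 and at 12.4 and 8.98 CPM in S2 replicates 1 and 2. The S2-AbdA libraries lay above S2 replicates 1 and 2, and between the libraries of the other S2 set. No comparison passed the test: S2-AbdA had a log2 fold change of 0.75 over S2 replicates 1 and 2 (SE 0.49, adjusted p = 0.581) and -0.27 over S2 replicates 3 and 4 (SE 0.49, adjusted p = 0.697). Its direction against S2 replicates 3 and 4 rested on single libraries, since the value was -0.89 without S2 replicate 3 (adjusted p = 0.0444) and 0.83 without S2 replicate 4 (adjusted p = 0.0463). Between the S2 sets, replicates 3 and 4 over 1 and 2, it was 1.02 (SE 0.49, adjusted p = 0.139), 1.64 without S2 replicate 3 (adjusted p = 5.02e-04) and -0.08 without S2 replicate 4 (adjusted p = 0.852), and it also passed without S2-AbdA replicate 1 or 2 (adjusted p = 0.0900 and 0.0901). The call over S2 replicates 1 and 2 was also gained without S2 replicate 3 (adjusted p = 0.0522) or 4 (adjusted p = 0.0749). CG32639, which lies within the span of mew in dm3, had at most 2 counts in any library.

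The gene scb (36692, 2R, 11136290 to 11146003, plus strand) was higher in S2-AbdA against S2 replicates 3 and 4 and did not pass the test against S2 replicates 1 and 2. It stood at 19.4 and 15.6 CPM in S2-AbdA, at 2.83 and 5.10 CPM in S2 replicates 3 and 4 and at 14.5 and 19.3 CPM in S2 replicates 1 and 2. S2-AbdA overlapped with S2 replicates 1 and 2 and lay above S2 replicates 3 and 4. Against S2 replicates 1 and 2 the log2 fold change of scb was 0.01, well within its SE of 0.36 (adjusted p = 0.999). Over S2 replicates 3 and 4 scb was higher (1.86, SE 0.38, adjusted p = 0.00765), and S2 replicates 3 and 4 were themselves below S2 replicates 1 and 2 (-1.84, SE 0.38, adjusted p = 0.00587). Both calls held with any 1 of the 6 libraries left out.

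The gene alphaPS4 (now ItgaPS4, 36693, 2R, 11146272 to 11150310), which starts 268 bases after the end of scb on the same strand, had at most 5.85 CPM in any library. It stood at 1.83 and 1.47 CPM in S2-AbdA, at 1.31 and 0.888 CPM in S2 replicates 3 and 4 and at 3.45 and 5.85 CPM in S2 replicates 1 and 2. In these CPM, which are not scaled between libraries, the S2-AbdA libraries lay below S2 replicates 1 and 2 and just above S2 replicates 3 and 4. The test used TMM scaling factors of 0.752 for S2 replicate 3 and 1.10 and 1.08 for S2-AbdA replicates 1 and 2. They raise the level in S2 replicate 3 and lower it in S2-AbdA. In the scaled fit without S2 replicate 4, alphaPS4 had a log2 fold change of -0.22 in S2-AbdA over S2 replicate 3. The order over S2 replicates 3 and 4 was thus not kept after scaling. It fell against S2 replicates 1 and 2 (-1.53, SE 0.48, adjusted p = 0.0793), a call that was lost without S2 replicate 2 (adjusted p = 0.585), S2-AbdA replicate 1 (adjusted p = 0.166) or S2-AbdA replicate 2 (adjusted p = 0.263). Set against S2 replicates 3 and 4, S2-AbdA had a value of 0.22 (SE 0.48, adjusted p = 0.756). Compared between the S2 sets, alphaPS4 was lower in replicates 3 and 4 (-1.75, SE 0.48, adjusted p = 0.0264), with that call lost without S2 replicate 2 (adjusted p = 0.223). The gene trpm, whose span begins 60 bases beyond alphaPS4, had a log2 fold change of 0.05 in S2-AbdA over S2 replicates 1 and 2 (adjusted p = 0.997) and 1.22 over S2 replicates 3 and 4 (adjusted p = 0.0374).

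The gene alphaPS5 (now ItgaPS5, 37732, 2R, 19444333 to 19447720) had the widest range of the α subunit genes among the S2 libraries, as the ratio of the highest to the lowest. It stood at 2.07 and 8.91 CPM in S2-AbdA, at 0.241 and 1.10 CPM in S2 replicates 3 and 4 and at 22.4 and 15.2 CPM in S2 replicates 1 and 2. The S2-AbdA libraries, which differed 4.31-fold, lay between the S2 sets without overlap. The value over S2 replicates 1 and 2, -1.81 (SE 0.65, adjusted p = 0.143), did not pass the test. It passed without S2-AbdA replicate 2 (-3.24, adjusted p = 2.24e-04) and without S2 replicate 2 (-2.04, adjusted p = 0.0719). Over S2 replicates 3 and 4 alphaPS5 was higher (2.78, SE 0.70, adjusted p = 0.0211), and that call was lost without S2-AbdA replicate 2 (1.35, adjusted p = 0.175) or S2 replicate 3 (2.19, adjusted p = 0.318). S2 replicates 3 and 4 were lower than S2 replicates 1 and 2 (-4.59, SE 0.75, adjusted p = 0.00145), a call lost without S2 replicate 3 (-4.01, adjusted p = 0.140).

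The makeup of the α subunit RNA differed between the sets, read as each gene's share of the summed α level per kilobase. This measure does not depend on a scaling factor of the whole library, but it is not free of the length trend given below. The exonic lengths of the α subunit genes run from 3207 bases for alphaPS5 to 6011 for if, and the shares were not recomputed with that trend removed. The share of if was 53.9% and 47.2% in S2-AbdA, 10.0% and 7.52% in S2 replicates 3 and 4 and 2.84% and 2.49% in S2 replicates 1 and 2. That of alphaPS5 was 3.48% and 14.8% in S2-AbdA, 2.81% and 4.14% in S2 replicates 3 and 4 and 51.1% and 38.4% in S2 replicates 1 and 2. S2 replicates 3 and 4 were led by mew, with 51.2% and 72.9%, against 18.8% and 19.2% in S2-AbdA and 17.5% and 13.9% in S2 replicates 1 and 2. The leading α subunit RNA was thus if in S2-AbdA, mew in S2 replicates 3 and 4 and alphaPS5 in S2 replicates 1 and 2, and within each set both libraries had the same leading gene on this scale. By raw counts, S2 replicate 2 was led by scb (37.6%) ahead of alphaPS5 (29.8%), and the other libraries kept these leading genes. The share of scb, 20.9% and 16.6% in S2-AbdA, lay within the range over the S2 libraries, from 12.3% to 31.1%. No test was made of the shares, since 2 libraries against 2 are too few for an exact permutation test to pass the usual threshold.

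**Figure D2:**
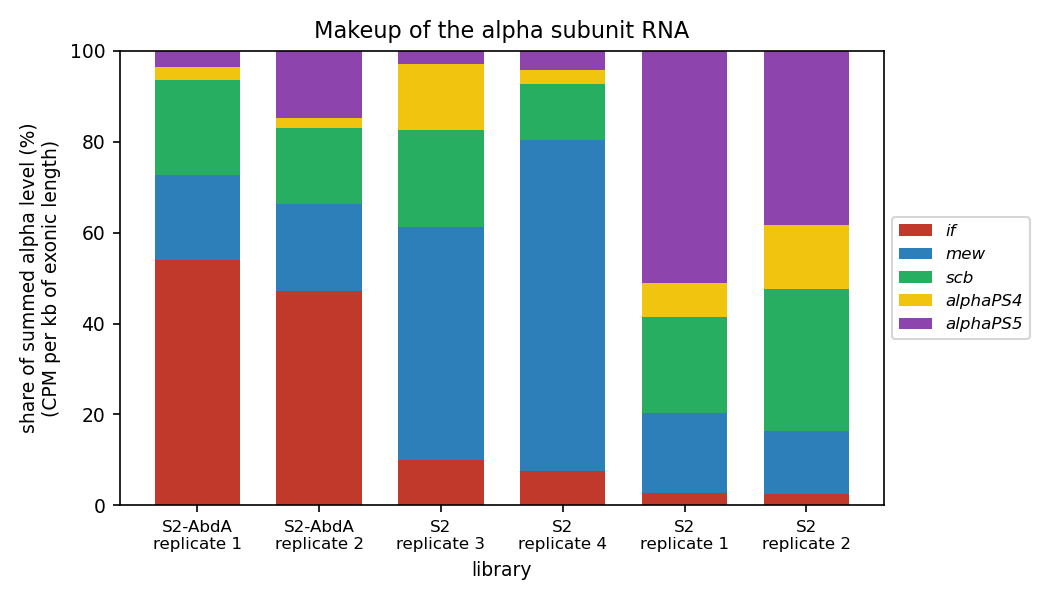
Share of each α subunit gene in the summed α level of each library, in percent of CPM per kilobase of exonic length. The if gene makes up 53.9% and 47.2% in the S2-AbdA libraries, mew 51.2% and 72.9% in S2 replicates 3 and 4, and alphaPS5 51.1% and 38.4% in S2 replicates 1 and 2.

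Of the β subunit genes, mys (44885, X, 7955680 to 7964270, plus strand) stood at 822 and 933 CPM in S2-AbdA, at 220 and 671 CPM in S2 replicates 3 and 4 and at 635 and 756 CPM in S2 replicates 1 and 2. The S2-AbdA libraries lay above all 4 S2 libraries, but S2 replicate 4 and S2 replicate 3 lay further apart than the set means did. It had a log2 fold change of 0.30 over S2 replicates 1 and 2 (SE 0.41, adjusted p = 0.911) and 0.74 over S2 replicates 3 and 4 (SE 0.42, adjusted p = 0.209), and neither passed the test. Without S2 replicate 4, which left S2 replicate 3 alone in its set, the value over S2 replicate 3 was 1.44 (adjusted p = 8.09e-04), and without S2 replicate 3 the value over S2 replicate 4 was 0.27 (adjusted p = 0.526). The S2 sets differed in mys by -0.45 (SE 0.41, adjusted p = 0.424), and by -1.14 without S2 replicate 4 (adjusted p = 0.00292). The genes most like mys over the 6 libraries were Gap1 (now RasGAP1, root mean square difference 0.0432), Taf4 (0.0483) and gry (0.0576), which were lowest in S2 replicate 3 as mys was, at 38.1, 65.7 and 30.0 CPM.

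The βν gene betaInt-nu (now Itgbn, 35368, 2L, 21053033 to 21057705) went in opposite directions against the S2 sets. It stood at 2.19 and 3.67 CPM in S2-AbdA, at 0.870 and 1.26 CPM in S2 replicates 3 and 4 and at 12.8 and 19.1 CPM in S2 replicates 1 and 2. The 3 sets did not overlap, and S2-AbdA lay between the S2 sets. In S2-AbdA it fell against S2 replicates 1 and 2 (-2.48, SE 0.44, adjusted p = 0.00379), and the call held with any 1 library left out (-2.91 to -2.14). Against S2 replicates 3 and 4 it was higher (1.16, SE 0.43, adjusted p = 0.0768), and this call was lost without S2-AbdA replicate 2 (0.71, adjusted p = 0.541), S2 replicate 1 (adjusted p = 0.121) or S2 replicate 2 (adjusted p = 0.113). S2 replicates 3 and 4 were lower than S2 replicates 1 and 2 (-3.63, SE 0.46, adjusted p = 3.02e-04). The share of mys in the summed β level was 99.6% and 99.5% in S2-AbdA, 99.5% and 99.7% in S2 replicates 3 and 4 and 97.4% and 96.7% in S2 replicates 1 and 2. Of the 8 plasmatocyte markers, 7 had the same order of set means as betaInt-nu, with S2-AbdA above S2 replicates 3 and 4 and below S2 replicates 1 and 2. The exception was Pxn, at 15.4 CPM in S2-AbdA, 146 in S2 replicates 3 and 4 and 122 in S2 replicates 1 and 2. That order was also found in 4 of 8 muscle, 2 of 4 lamellocyte and 2 of 4 neuronal markers. It was found in 1 of 4 crystal cell, 1 of 3 tendon and 0 of 4 epithelial markers. Among the integrin genes, the mean CPM of alphaPS4 and alphaPS5 had it too. The order was thus not particular to plasmatocyte markers, and the share of all genes with it was not counted. For crq, the means of S2-AbdA and S2 replicates 1 and 2 were close, at 551 and 559 CPM. For srp, those of S2-AbdA and S2 replicates 3 and 4 were close, at 158 and 142 CPM. The S2-AbdA libraries of Hml stood at 14.9 and 168 CPM. The part of these markers in the results for alphaPS5 and betaInt-nu was not tested.

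**Figure D3:**
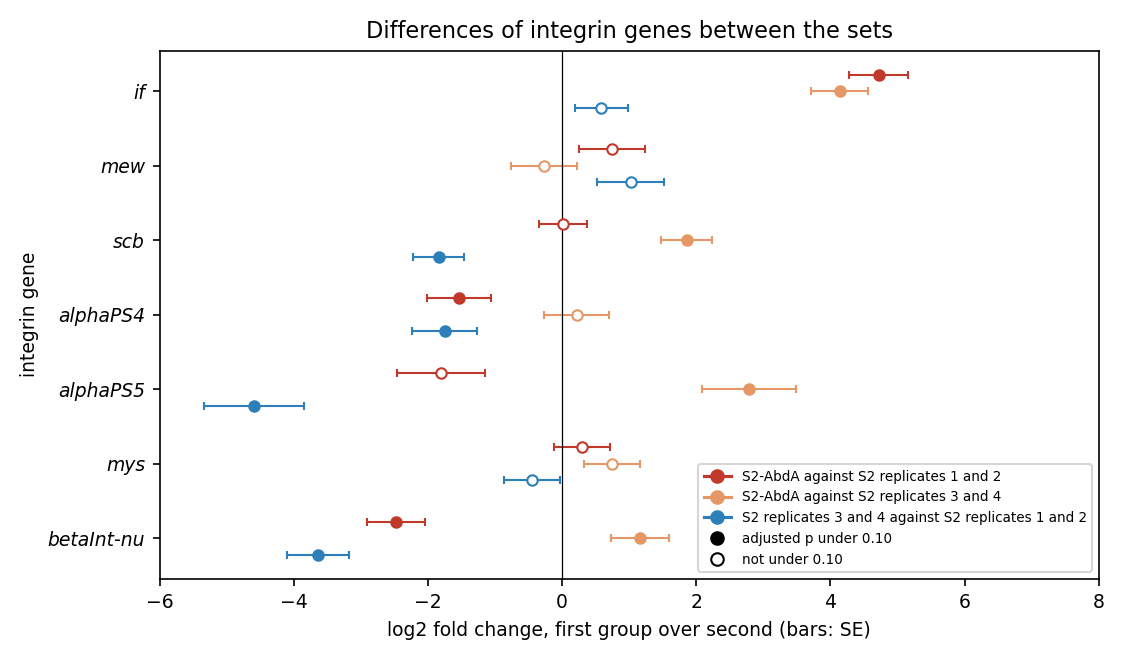
Log2 fold change of each integrin gene in the 3 comparisons, first group over second, with its standard error; filled points have an adjusted p under 0.10. The if gene lies at 4.72 and 4.14 in the comparisons of S2-AbdA, and betaInt-nu at -2.48 over S2 replicates 1 and 2 and 1.16 over S2 replicates 3 and 4.

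Of the 7 genes, if rose and alphaPS4 and betaInt-nu fell when S2-AbdA was set against S2 replicates 1 and 2, which is 1 higher and 2 lower, and 4 did not pass the test. Among all tested genes 3.0% rose and 7.36% fell in that comparison, 10.4% in either direction. In CPM without scaling between libraries, here and below, the libraries did not overlap for 6 of the 7 genes, against 54.6% of all genes. Against S2 replicates 3 and 4, 4 were higher in S2-AbdA (if, scb, alphaPS5 and betaInt-nu), none was lower and 3 did not pass, where 14.7% of all genes were higher and 17.1% lower, 31.8% in either direction. The libraries again did not overlap for 6 of the 7, against 64.1% of all genes. Among these 6 was alphaPS4, whose order was not kept after scaling. DESeq2 also called 4 higher and 0 lower, and at an unadjusted p under 0.05 in edgeR 0 were lower. The number higher was 2 without S2-AbdA replicate 2 and 6 without S2 replicate 4, and 1 gene (mew) was lower without S2 replicate 3. Against S2 replicates 1 and 2, 2 rose without S2 replicate 3 or 4, and 1 fell without S2-AbdA replicate 1. Between the S2 sets, 4 of 7 were lower in replicates 3 and 4 (scb, alphaPS4, alphaPS5 and betaInt-nu), where 18.9% of all genes were lower and 18.1% higher, 37.0% in either direction. Libraries of these sets did not overlap for 4 of the 7 genes, against 71.6% of all genes. None was higher in S2 replicates 3 and 4 by edgeR, by DESeq2 or at an unadjusted p under 0.05, but 2 were higher without S2 replicate 3 and 1 without either S2-AbdA library. The split of all genes in the comparisons with S2 replicates 3 and 4 moved with the scaling: S2-AbdA over these libraries had 1377 genes higher and 1600 lower, against 1536 and 779 with library size alone, and the S2 sets had 1698 higher and 1772 lower, against 760 and 1738 with library size alone and 1170 and 1981 with upper quartile scaling. The median log2 fold change over the 7 genes was 0.01, 1.16 and -1.75 in these comparisons, beside -0.02, -0.01 and -0.01 over all tested genes.

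Gene length moved with the comparisons that involve S2 replicates 3 and 4. The exonic lengths of the integrin genes, 3207 to 6011 bases, all exceeded the median of 2039 bases over the tested genes. Across genes, Spearman's rho of the log2 fold change with exonic length was 0.392 for S2-AbdA over S2 replicates 3 and 4 and 0.0754 for S2-AbdA over S2 replicates 1 and 2, a description over genes that share libraries. With each library's trend on length removed, which moved the median of all genes to -0.16, the values over S2 replicates 3 and 4 were 3.60 for if (adjusted p = 3.77e-04), 2.34 for alphaPS5 (adjusted p = 0.0405), 1.29 for scb (adjusted p = 0.0143) and 0.67 for betaInt-nu, whose call was lost (adjusted p = 0.170). In the comparison with S2 replicates 1 and 2 the median moved to 0.12, if was at 4.78, betaInt-nu at -2.40 and alphaPS4 at -1.42, and the call of alphaPS4 was lost (adjusted p = 0.129). Between the S2 sets, if (1.18, adjusted p = 0.0132) and mew (1.52, adjusted p = 0.0177) were then higher in S2 replicates 3 and 4, and the call of alphaPS4 was lost (adjusted p = 0.103).

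The authors' deposited table lists 5 of the 7 genes among those changed between S2-AbdA and S2. Its log headings are exchanged, and the values run S2 over S2-AbdA. Turned round to S2-AbdA over S2, the authors' deposited table gives log2 values of 4.77 for if, 0.80 for mew, -1.55 for alphaPS4, -1.77 for alphaPS5 and -2.49 for betaInt-nu. The false discovery rate in the authors' deposited table is 1.69e-36 for if, 3.98e-12 for betaInt-nu, 4.49e-07 for alphaPS5, 1.01e-04 for alphaPS4 and 0.0680 for mew. Of these, alphaPS5 and mew did not pass edgeR's quasi-likelihood test here, in a fit that held all S2 libraries. The same test was also run on only the 4 libraries of S2-AbdA and S2 replicates 1 and 2, whose labels name the authors' table. There mew passed (0.78, adjusted p = 0.0551) and alphaPS5 did not (-1.78, adjusted p = 0.297). The authors' deposited table does not list scb and mys.

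Genes of the adhesion complex, which couples integrins to actin inside the cell, had 2 of 22 higher and 0 lower in S2-AbdA against S2 replicates 1 and 2 by edgeR, where 3.0% of all tested genes were higher and 7.36% lower, with a median log2 fold change of 0.09. DESeq2 also gave 2 and 0, and 0 were lower at an unadjusted p under 0.05. The first was pico, which encodes an adaptor between Ras-like proteins and actin regulators, at 493 and 224 CPM in S2-AbdA, 94.9 and 165 in S2 replicates 3 and 4 and 102 and 114 in S2 replicates 1 and 2 (1.68, SE 0.42, adjusted p = 0.0272). The other was parvin, which encodes a partner of integrin-linked kinase, at 275 and 241 CPM in S2-AbdA, 112 and 102 in S2 replicates 3 and 4 and 118 and 110 in S2 replicates 1 and 2 (1.14, SE 0.36, adjusted p = 0.0809). The call of pico was lost without S2 replicate 1, S2 replicate 2 or S2-AbdA replicate 1 (adjusted p = 0.185, 0.128 and 0.525), and that of parvin without S2 replicate 1 or 2 (adjusted p = 0.484 and 0.549) and without S2-AbdA replicate 1 or 2 (adjusted p = 0.487 and 0.223).

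Against S2 replicates 3 and 4, 5 genes of the adhesion complex were higher in S2-AbdA and 1 lower, with a median of 0.23. Of all tested genes 14.7% were higher and 17.1% lower, 31.8% in either direction, so 6 of 22 called is near the share over all genes. The vinculin gene Vinc was at 354 ± 74.4 CPM in S2-AbdA and 126 ± 94.1 in S2 replicates 3 and 4 (SD, n = 2 each; 1.26, SE 0.43, adjusted p = 0.0608). CAP, a vinculin-binding adaptor gene (1.08, adjusted p = 0.0664), pico (1.17, adjusted p = 0.0652), parvin (0.92, adjusted p = 0.0843) and p130CAS, a docking protein gene that lay outside the rule for named genes and is named after its values were seen (1.18, adjusted p = 0.0883), were the other higher genes. The zyxin gene Zyx was lower (-0.99, adjusted p = 0.0773). The count of higher genes was 2 without S2 replicate 1 or 2, 3 without S2 replicate 3, 10 without S2 replicate 4, 1 without S2-AbdA replicate 2 and 2 with the length trend removed, when 5 were lower.

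Among 10 genes of extracellular ligands, S2-AbdA had 1 lower against S2 replicates 1 and 2 and 1 higher against S2 replicates 3 and 4, and in both cases it was Ndg, the gene of the basement membrane protein nidogen. All tested genes had 7.36% lower in the first of these comparisons and 14.7% higher in the second. Ndg stood at 0.569 and 1.42 CPM in S2-AbdA, at 0.167 and 0.143 CPM in S2 replicates 3 and 4 and at 6.37 and 9.003 CPM in S2 replicates 1 and 2. The value was -2.98 over S2 replicates 1 and 2 (SE 0.52, adjusted p = 0.00386) and 2.36 over S2 replicates 3 and 4 (SE 0.59, adjusted p = 0.0206), with the call over S2 replicates 3 and 4 lost without S2-AbdA replicate 2 (adjusted p = 0.207). Tig, the gene of the αPS2 ligand tiggrin, did not pass the test and is named outside the rule for named genes, after its values were seen. It stood at 495 ± 60.9 CPM in S2-AbdA, 720 ± 573 in S2 replicates 3 and 4 and 1067 ± 54.5 in S2 replicates 1 and 2 (SD, n = 2 each), with log2 fold changes of -0.76 over S2 replicates 3 and 4 (adjusted p = 0.226) and -1.14 over S2 replicates 1 and 2 (adjusted p = 0.183). The gene Tsp stands in this list and among the tendon markers. The median over the list was -0.73 against S2 replicates 1 and 2 and -0.48 against S2 replicates 3 and 4. With 4 libraries in the fit, or without S2 replicate 3 or 4, 4 ligand genes were lower and 2 higher against S2 replicates 1 and 2.

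**Figure D4:**
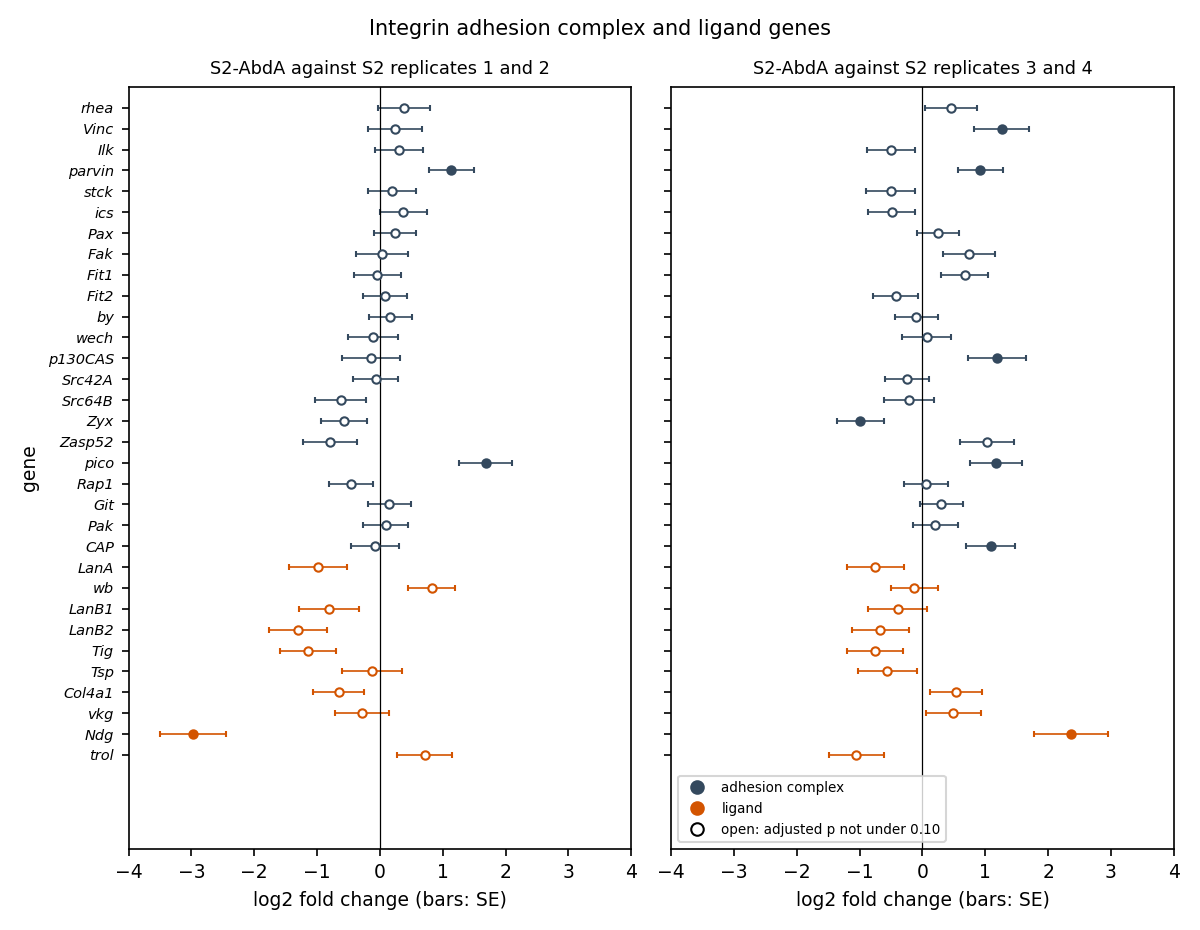
Log2 fold change of 22 adhesion complex genes and 10 ligand genes in S2-AbdA over S2 replicates 1 and 2 (left) and over S2 replicates 3 and 4 (right), with standard errors; filled points have an adjusted p under 0.10. Ndg lies at -2.98 on the left and 2.36 on the right, and pico at 1.68 and 1.17.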

How the data were processed

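RNA-seq libraries of S2-AbdA cells (2) and S2 cells (4) were read from the deposited tables of raw counts per gene. Per the submitters' processing notes, CASAVA, edgeR and build dm3 were used. Sources used here do not give the aligner, counter or strand setting, and reads of overlapping genes on opposite strands cannot be told apart. The authors' deposited table gives log2 values, p-values and false discovery rates for 2122 genes. Its log headings are exchanged: across genes the column headed logConc had r = -0.946 with log2 of S2-AbdA over S2 (pseudocount 0.1 CPM), and that headed logFC had r = 0.976 with the mean log2 level.

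Counts were tested with edgeR 4.0.16 in R 4.3.3 (filterByExpr, TMM, robust quasi-likelihood F test, 3 sets, no block), and p-values were adjusted by Benjamini-Hochberg over 9375 genes. A gene was called under 0.10. CPM were counts over the library total. Exonic lengths, strands and transcripts came from the BDGP6 annotation, matched by gene number for 14468 of 14770 genes, and coordinates are those of the count tables. Same-set libraries differed beyond sampling noise, with a chi-square per gene of 74.3 to 812, and each was counted once. The fits were checked on simulated data for S2-AbdA against S2 replicates 1 and 2. The test called 1 of 52 genes changed 2-fold (1.92%), 82.7% of those changed 4-fold and 97.1% of those changed 8-fold. It called 15 of 8982 unchanged genes. A gene that did not pass the test in that comparison may therefore still differ by about 2-fold. The simulation changed 52, 75 and 69 genes by 2-, 4- and 8-fold, beside 971 genes called in the data, so the rates may differ there. The comparisons with S2 replicates 3 and 4 were not simulated. Alternatives were other scalings, DESeq2 1.42.0, other filters, a threshold of 0.05, a replicate block, 4 libraries only, length offsets, 1 merged S2 group and leaving out each library.

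All 7 integrin genes are named. From the adhesion and ligand lists, up to 4 genes past the test with the smallest adjusted p per comparison are named, with exceptions declared in the text, and for if and mys the 3 genes most alike. The members and lists were chosen with earlier results of these data known.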

Additional observations from a re-analysis of the deposited data

Results flagged for a closer look

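For 4 integrin genes the effect in S2-AbdA differed between the S2 sets used as the reference, by the test of the difference between those sets. The log2 difference of S2 replicates 3 and 4 over S2 replicates 1 and 2 was -4.59 for alphaPS5, -3.63 for betaInt-nu, -1.84 for scb and -1.75 for alphaPS4, with adjusted p (edgeR, Benjamini-Hochberg) of 0.00145, 3.02e-04, 0.00587 and 0.0264. Why the S2 sets differ was not tested. A check for single libraries far from their group needs at least 4 libraries, and could not be made within sets of 2.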

How the results depend on the processing

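Across the alternatives, single integrin genes kept their direction and their side of the threshold in 299 of the recomputed values, lost a call in 20 and gained one in 18 with the direction kept. In 3 a value called in either fit changed sign, and in 10 a value called in neither did. The 3 were mew over S2 replicates 3 and 4 without S2 replicate 4 (0.83, against -0.89 without S2 replicate 3) and, with all S2 libraries as 1 group, alphaPS5 (-0.86) and betaInt-nu (-1.59). That merged group is by construction another reference. The 10 were values of alphaPS4 over S2 replicates 3 and 4 (-0.91 to -0.22, against 0.22), scb over S2 replicates 1 and 2 (-0.18 to -0.03, against 0.01), mys (0.04 to 0.13, against -0.45) and mew (-0.08, against 1.02) between the S2 sets, and mew over S2 replicates 3 and 4 with merged S2 (0.15, against -0.27).

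In S2-AbdA against S2 replicates 1 and 2, the integrin genes that fell numbered 1 at the 0.05 threshold and 1 with length offsets, and 2 rose with only the 4 libraries compared. All genes that rose numbered 758 with only these 4 libraries and 589 with length offsets. With merged S2, 34 genes rose and 12 fell, and of the integrin genes 1 rose and 0 fell. Against S2 replicates 3 and 4, all genes lower numbered 779 with library size alone, 917 at the 0.05 threshold and 608 with only the 4 libraries, and 912 were higher at 0.05. Between the S2 sets, higher genes numbered 760 with library size alone, 864 at 0.05 and 3256 with length offsets, and 1 integrin gene was higher with no filter, 1 with only the 4 libraries and 2 with length offsets. The cause of these moves was not tested.

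Leaving out each library gave these ranges. Against S2 replicates 1 and 2, 131 to 762 genes rose and 480 to 1067 fell, with 1 to 2 and 1 to 2 integrin genes. Against S2 replicates 3 and 4, 698 to 2782 were higher and 356 to 3210 lower, with 2 to 6 and 0 to 1 integrin genes. Between the S2 sets, 150 to 3237 were higher and 898 to 3117 lower, with 0 to 2 and 3 to 5 integrin genes. A lone library in a set was assumed to vary like the other sets.

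For the partner lists the same alternatives were chosen after seeing the data. Against S2 replicates 1 and 2, adhesion complex genes that rose numbered 1 at 0.05 and 0 with merged S2, and 1 fell with only 4 libraries. Ligand genes that fell numbered 2 by DESeq2, 4 with no filter, 4 with only 4 libraries, 3 with length offsets and 0 with merged S2, and those that rose numbered 2 with only 4 libraries and 1 with length offsets. Against S2 replicates 3 and 4, higher adhesion genes numbered 0 at 0.05, 0 with only 4 libraries, 2 with length offsets and 0 with merged S2. Lower adhesion genes numbered 5 with length offsets and 0 with upper quartile scaling, library size alone, the 1 CPM filter, the 0.05 threshold, only 4 libraries or merged S2. Lower ligand genes numbered 1 by DESeq2, 1 with no filter and 7 with length offsets, and higher ones 0 with merged S2. With each library left out, adhesion genes numbered 0 to 2 higher and 0 to 1 lower against S2 replicates 1 and 2, and 1 to 10 and 0 to 5 against S2 replicates 3 and 4. Ligand genes numbered 0 to 2 and 1 to 4, and 0 to 3 and 0 to 4, in the same order.

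The replicate numbers did not pair the samples: the deviations of same-numbered S2-AbdA and S2 libraries had a correlation of -0.00683. With a replicate block, 281 genes rose and 732 fell against S2 replicates 1 and 2, and alphaPS5 was called (-2.12, adjusted p = 0.00261). S2 replicates 3 and 4 have no same-numbered S2-AbdA library and were coded with the replicate 1 libraries, so the block does not pair them. With the replicate block, 779 were higher and 539 lower against S2 replicates 3 and 4, where betaInt-nu was 0.77 (adjusted p = 0.441), and 386 higher and 1092 lower between the S2 sets. With the replicate block, 1 adhesion complex gene rose and 2 ligand genes fell against S2 replicates 1 and 2, and 1 adhesion gene was higher and 0 lower against S2 replicates 3 and 4.

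Of the mean shares, alphaPS4 in S2-AbdA was 1.98% with coding length and 1.65% with raw counts, alphaPS5 was 2.22% in S2 replicates 3 and 4 and 35.2% in S2 replicates 1 and 2 with raw counts, and mew was 18.5% in S2-AbdA and 20.1% in S2 replicates 1 and 2 with raw counts. The share of if with raw counts was 56.8% in S2-AbdA, 10.6% in S2 replicates 3 and 4 and 3.93% in S2 replicates 1 and 2, where coding length gave 3.11% and raw counts put scb ahead of alphaPS5 in replicate 2, and mys in S2 replicates 1 and 2 was 97.7% with coding length and 97.8% with raw counts. Each set holds 2 libraries, and for alphaPS5 in S2 replicate 3 the depth gave 13 counts.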
